A study of Rattus norvegicus with 18 samples.

Results

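The data describe the messenger RNA of cultured heart muscle cells that were pretreated with the REV-ERB agonist SR9009 and then given a hypertrophic stimulus for 48 h. The group with SR9009 and 48 h of phenylephrine (PE) was set against the group with SR9009 alone at 0 h. A gene was included when its deposited value was above 0 with status OK in both groups and its mean over the 6 groups of the study was at least 1 FPKM, a count of sequenced fragments divided by transcript length and library size. Of the 17312 genes listed, 10425 met this rule, and 10409 of these had values inside their own deposited confidence bounds and were used.

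The cells were neonatal rat ventricular myocytes (NRVM), prepared from Sprague-Dawley pups at day 2 after birth. They were plated in medium with serum, moved to serum-free medium with the supplement ITS, and pretreated for 24 h with SR9009 or vehicle. RNA was taken at 0 h without PE, or after 4 or 48 h of PE, in 6 groups of 3 libraries. SR9009 at 0 h therefore stands for 24 h of the agonist alone, and SR9009 at 48 h for the agonist followed by PE; whether SR9009 stayed in the medium during PE is not given in the sources used here. "Under SR9009" below means the arm pretreated with it. The vehicle groups at 0 and 48 h were used to show where the response under SR9009 differed. No culture was kept for 48 h without PE, so PE and time in culture cannot be told apart within an arm, and neither can PE and the further time after SR9009 was added. The cells are a primary culture without a genetic change stated in the labels, and how many pups were pooled is not given in the sources used here.

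As background, PE activates α1-adrenergic receptors, which signal through Gq, and it makes cultured myocytes larger and switches on a fetal gene programme with natriuretic peptides and skeletal α-actin. Nr1d1 encodes REV-ERBα and Nr1d2 REV-ERBβ, nuclear receptors that repress transcription and form part of the circadian clock, and SR9009 is a synthetic ligand that activates them. The unfolded protein response and the integrated stress response, which recur below, raise chaperones of the endoplasmic reticulum and, through the transcription factor ATF4, genes of amino acid uptake and synthesis.

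The authors combined the 3 libraries of a group into 1 FPKM per gene with a confidence bound on either side. No standard deviation or test between libraries could be computed, so every difference below is a description. Differences are of log2(FPKM + 1), 48 h minus 0 h, which understates the change of low genes. The range that follows a difference in parentheses was taken from the deposited bounds at their most distant. The words higher and lower are kept for genes with a difference of at least 1 in size (2-fold) and a range that excluded 0. Summed FPKM was 612421 for SR9009 at 0 h and 656724 at 48 h, against 609018 and 710198 in vehicle. The bounds reached a median of 14.98% and 14.94% of the value to either side in the 2 SR9009 groups for genes of at least 5 FPKM, and the depth of the libraries is unknown.

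Under SR9009, 131 of 10409 genes were higher at 48 h (1.26%) and 121 were lower (1.16%), together 252 (2.42%). In vehicle the same interval gave 507 higher (4.87%) and 412 lower (3.96%) of 10416 genes, together 919 (8.82%). The spread of the differences over all genes was also narrower under SR9009, with a standard deviation of 0.40 against 0.62 in vehicle. The median difference of all genes was -0.03 under SR9009 and 0.01 in vehicle. The difference between the arms (SR9009 response minus vehicle response) met the rule on the higher side in 3.71% of 10394 genes. On the lower side it did so in 5.34%. Counts of list members below are to be read beside these shares. With FPKM rescaled to equal sums in every group the SR9009 counts were 111 higher and 165 lower, so that 40.2% in place of 52% of the genes called were higher, and the median of all genes was -0.13. Another 26 genes had a difference of at least 1 in size with a range that included 0 and were not called. Just inside the limit of 2-fold lay Des at 1.01, Acadm at 1.01, Nr4a1 at 1.01, Tbkbp1 at -1.002, Slc1a4 at -1.01 and Hid1 at -1.01. Just outside lay Gyg1 at 0.998, Mrpl15 at 0.989, Krt18 at 0.987, Dpt at -0.999, Plac9 at -0.996 and Edn1 at -0.994.

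**Figure D1:**
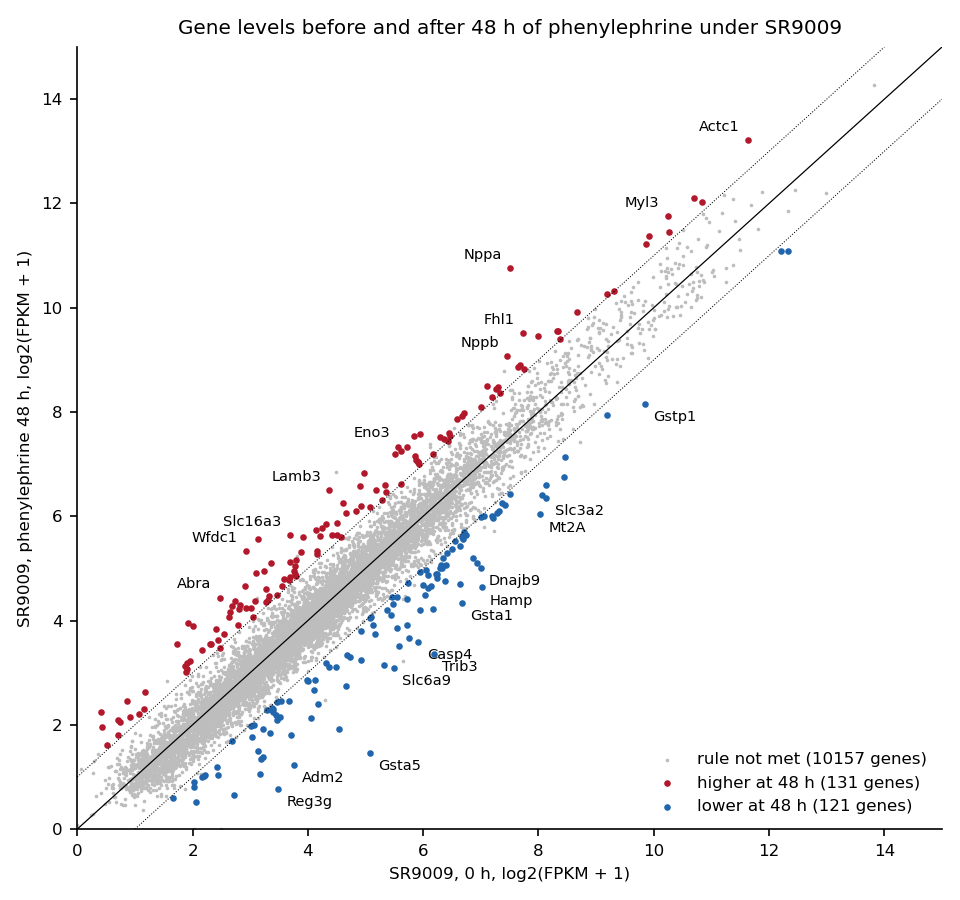
Level of each of the 10409 genes under SR9009 at 0 h (x axis) and after 48 h of phenylephrine (y axis), both as log2(FPKM + 1), 1 point per gene and no replicate error. The solid line marks equal levels and the dotted lines a difference of 1 in size. The 131 red genes were higher and the 121 blue genes lower, with Nppa farthest above the line and Gsta5 farthest below it among the genes labelled.

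The label of the cells was checked against marker genes. The 10 measured cardiomyocyte markers summed to 9150 FPKM at 0 h and 18900 at 48 h under SR9009, against 1880 and 1340 for 11 fibroblast markers, 1950 and 2160 for 10 smooth muscle markers, 65.8 and 49.7 for 8 endothelial markers and 26.7 and 28.3 for 8 macrophage markers. Erythroid markers (4 genes) summed to 75.8 and 34.0 FPKM, Schwann and neural markers (5 genes) to 68.1 and 90.3, and epicardial markers (4 genes) to 26.2 and 18.4. No lymphocyte marker could be measured, with no marker above 0.0477 FPKM at 0 h or 0.0438 at 48 h. Cardiomyocyte markers thus dominated in both groups, beside markers of fibroblasts and smooth muscle. Of the smooth muscle sum, Des, an intermediate filament gene of muscle, gave 638 FPKM at 0 h and 1281 at 48 h. That sum is therefore not particular to smooth muscle cells. In a bulk culture, fewer cells of a type and less RNA per cell cannot be told apart.

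The clearest change of a whole gene group was a lower level of the stress genes of the endoplasmic reticulum and of amino acid supply. Of 29 measured genes on this list 17 were lower at 48 h under SR9009, 0 were higher, and all 29 had a difference below 0, with a median of -1.17 beside -0.03 over all genes. In vehicle none of the 29 met the rule in either direction, and their median was -0.12. The sign of all 29 differences under SR9009 was the same with FPKM rescaled to equal sums, with the median of all genes set to 0 and with quantile normalization. The difference between the arms was below 0 in 29 of 29 genes and met the rule in 13.

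Trib3, a pseudokinase that ATF4 induces and that restrains AKT (chromosome 3, 147814066 to 147819650, rn6), stood at 71.7 FPKM with SR9009 at 0 h and at 9.30 after 48 h of PE, a difference of -2.82 (-3.30 to -2.36). Its vehicle values were 34.5 FPKM at 0 h and 26.1 at 48 h. The SR9009 arm thus started above vehicle and ended below it. Atf4, the transcription factor of the integrated stress response (chromosome 7, 121480723 to 121482781), stood at 351 FPKM with SR9009 alone and 139 after 48 h of PE, with a difference of -1.33 (-1.76 to -0.91), and 268 and 340 FPKM in vehicle. Ddit3, which encodes the stress factor CHOP, had 77.5 and 31.1 FPKM under SR9009, a difference of -1.29 (-2.12 to -0.49). Chac1, which breaks down glutathione, had 17.1 and 4.28 FPKM (-1.78, -2.35 to -1.24).

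Genes of amino acid uptake and synthesis moved in the same direction. Slc7a5 and Slc3a2 encode the 2 chains of the large neutral amino acid transporter. Slc7a5 had 98.8 and 25.1 FPKM under SR9009, a difference of -1.93 (-2.34 to -1.52), and Slc3a2 had 281 and 80.8 FPKM, a difference of -1.78 (-2.20 to -1.37). In vehicle Slc7a5 stood at 53.5 and 51.5 FPKM and Slc3a2 at 139 FPKM at both times, so both were nearly level there. Asns, asparagine synthetase, differed by -1.47, and the serine synthesis enzymes Phgdh and Psat1 by -1.34 and -1.32. Slc6a9, a glycine transporter outside the list, had 43.9 and 7.53 FPKM, a difference of -2.40 (-2.78 to -2.01).

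Among the chaperones and their partners, Hspa5, which encodes the main chaperone of the endoplasmic reticulum, BiP (chromosome 3, 13838304 to 13842763), had 585 and 244 FPKM under SR9009, a difference of -1.26 (-1.69 to -0.82), against 399.6 and 426 in vehicle. Dnajb9, a cochaperone of BiP, had 127 and 31.3 FPKM under SR9009, a difference of -1.98 (-2.36 to -1.61). Sdf2l1 differed by -1.74, Herpud1, a factor of protein degradation from the endoplasmic reticulum, by -1.54, and Hyou1 by -1.12. Folding factors below the size limit were Hsp90b1 at -0.86, Calr at -0.81, Pdia4 at -0.85, Pdia6 at -0.72 and Canx at -0.59. Off the list, Derl3, a degradation factor, had 22.3 and 2.77 FPKM (-2.63, -3.37 to -1.99) and was lower in vehicle too, with 11.4 and 4.42 FPKM (-1.19). Fkbp11, a prolyl isomerase of the secretory pathway, had 52.9 and 11.7 FPKM (-2.08, -2.68 to -1.54).

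The place of each group among the 4 groups at 0 and 48 h shows both ends of this change. SR9009 at 0 h had the highest level of the 4 in 27 of the 29 stress genes and SR9009 at 48 h the lowest in 29 of 29. Both held together in 27 genes (93.1%), against 828 of all 10394 genes measured in the 4 groups (7.97%). The 2 exceptions were Vldlr and Edem1, whose highest level was in vehicle at 48 h. The median difference of the list between SR9009 and vehicle was 0.39 at 0 h and -0.59 at 48 h. The level at 0 h under SR9009 enters both the first of these values and the 48 h change, so they are not independent.

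**Figure D2:**
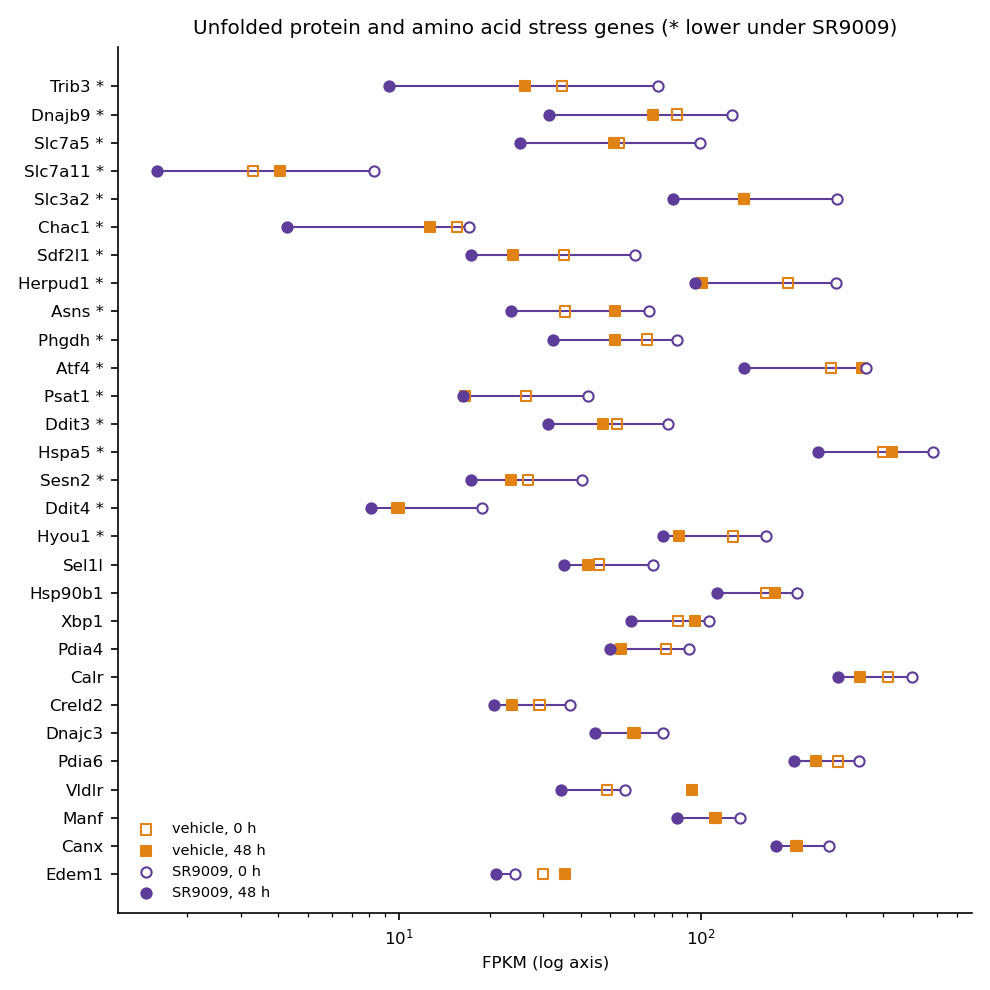
FPKM (log axis) of the 29 measured unfolded protein and amino acid stress genes in vehicle (squares) and SR9009 (circles, joined by a line) at 0 h (open) and 48 h (filled), 1 pooled value per group, with a star on the 17 genes lower under SR9009. The open circle is rightmost in 27 genes and the filled circle leftmost in all 29, while the squares lie between them apart from Vldlr and Edem1.

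Because this group carried the clearest change, the stretch of 250 bases before the start site was read for its members from RefSeq promoters of assembly GRCr8, in which 27 of the 29 symbols were found. It was searched on both strands for the C/EBP-ATF response element (CARE, TGATGNAA), which ATF4 dimers bind, and for the endoplasmic reticulum stress response element (ERSE, the letters CCAAT and CCACG with 9 free bases between them), which ATF6 binds with NF-Y. The stretches of Trib3 (chr3:161275534-161275783, minus strand), Chac1 (chr3:126795881-126796130, plus strand) and Hspa5 (chr3:38452766-38453015, plus strand) are shown for the gene with the largest difference, another CARE holder and the main chaperone, 5′ to 3′ toward the start site, with the match in capitals.
Trib3: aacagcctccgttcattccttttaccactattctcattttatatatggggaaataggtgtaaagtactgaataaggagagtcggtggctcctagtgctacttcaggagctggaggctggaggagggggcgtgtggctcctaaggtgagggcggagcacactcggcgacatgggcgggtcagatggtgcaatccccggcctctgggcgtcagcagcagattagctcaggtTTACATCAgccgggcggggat
Chac1: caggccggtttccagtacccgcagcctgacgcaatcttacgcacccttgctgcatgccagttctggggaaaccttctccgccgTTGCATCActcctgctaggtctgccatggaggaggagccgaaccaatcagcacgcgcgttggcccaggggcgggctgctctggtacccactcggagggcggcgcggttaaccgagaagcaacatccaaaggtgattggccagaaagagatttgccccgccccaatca
Hspa5: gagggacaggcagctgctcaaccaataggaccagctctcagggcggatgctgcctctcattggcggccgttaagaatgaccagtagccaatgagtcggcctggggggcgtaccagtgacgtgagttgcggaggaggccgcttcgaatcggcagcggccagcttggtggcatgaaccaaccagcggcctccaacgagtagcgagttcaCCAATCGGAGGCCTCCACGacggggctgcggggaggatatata
The capitals mark a CARE read on the opposite strand in Trib3 and Chac1 and an ERSE read on the gene's own strand in Hspa5. The CARE letters stood in 3 of the 27 list members (Chac1, Herpud1 and Trib3, all among the 17 lower) and in 635 of all 21851 promoters (2.91%). The ERSE letters stood in 7 of the 27 (Calr, Canx, Creld2, Dnajc3, Hsp90b1, Hspa5 and Xbp1), of which Hspa5 met the size rule, and in 19 of all promoters (0.087%). ERSE-II (ATTGG and CCACG with 1 free base between them), a related element that shares the letters CCACG with ERSE and was added after the sequences were seen, stood in Herpud1 and Hyou1 and in 12 of all promoters (0.0549%). A match gives the letters alone and not a bound site.

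Genes of the defence against oxidants and electrophiles formed the other pathway list with more than 2 members lower. Of 20 measured members 11 were lower, 0 higher, and 19 had a difference below 0, with a median of -1.17 under SR9009 and 0.20 in vehicle. SR9009 at 0 h had the highest level of the 4 groups in 18 of the 20, against 2295 of all 10394 genes, and the median difference between SR9009 and vehicle was 1.04 at 0 h and 0.04 at 48 h. The 48 h median lay between members on either side of vehicle, such as Srxn1 at 14.1 FPKM against 34.0 and Gsta1 at 19.2 against 7.15, and SR9009 at 48 h was the lowest of the 4 groups in 7 of the 20.

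The largest of all 252 differences that met the rule was that of Gsta5, a glutathione S-transferase (chromosome 8, 85553726 to 85564966), with 32.7 and 1.77 FPKM under SR9009, a difference of -3.61 (-4.51 to -2.79), and 3.29 and 0.425 FPKM in vehicle. Gsta1 had 101 and 19.2 FPKM under SR9009 (-2.33, -2.76 to -1.91) and 28.3 and 7.15 in vehicle. Gstp1 had 916 and 283 FPKM (-1.69, -2.11 to -1.27) against 287 and 184 in vehicle. These are members of families with near copies, between which fragments can be split, so their levels are uncertain.

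Srxn1, sulfiredoxin, which repairs overoxidised peroxiredoxins (chromosome 3, 147608850 to 147614410), had 51.5 and 14.1 FPKM under SR9009, a difference of -1.80 (-2.19 to -1.42), while vehicle went from 15.4 to 34.0. Txnrd1, thioredoxin reductase, had 154 and 66.2 FPKM (-1.20), Hmox1, heme oxygenase, 80.6 and 35.8 FPKM (-1.15), and Slc7a11, the cystine transporter that is also on the stress list, 8.27 and 1.591 FPKM (-1.84). The metallothioneins Mt2A, with 260.4 and 64.7 FPKM, and Mt1a, with 345 and 107 FPKM, differed by -1.99 and -1.68. Not every member followed: Nqo1 at -0.78, Gclc at -0.80, Gclm at -0.11, Prdx1 at -0.05 and Me1 at 0.08 did not meet the rule.

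Time separated the 2 lists. The stress list had a median of -0.56 after 4 h of PE under SR9009, with 5 of 29 lower and 0 higher. The oxidant list had a median of 0.20, with 1 of 20 lower and 0 higher. In that comparison 190 of 10408 genes were higher (1.83%) and 276 lower (2.65%), together 466 (4.48%), and it shares the 0 h group with the 48 h comparison. Trib3 passed through 20.9 FPKM at 4 h and Dnajb9 through 48.4. Srxn1 stood at 52.2 FPKM at 4 h, close to its level at 0 h, and Gsta5 at 55.9, above it. The 4 h step was not particular to the SR9009 arm. In vehicle Trib3 had 34.5, 15.5 and 26.1 FPKM at 0, 4 and 48 h, and Dnajb9 83.0, 33.2 and 69.5. Summed FPKM of the stress list was 3120, 2390 and 2950 in vehicle, against 4270, 3100 and 1970 under SR9009. For the oxidant list the sums were 1420, 1840 and 1440 in vehicle, against 3110, 4220 and 1550.

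**Figure D3:**
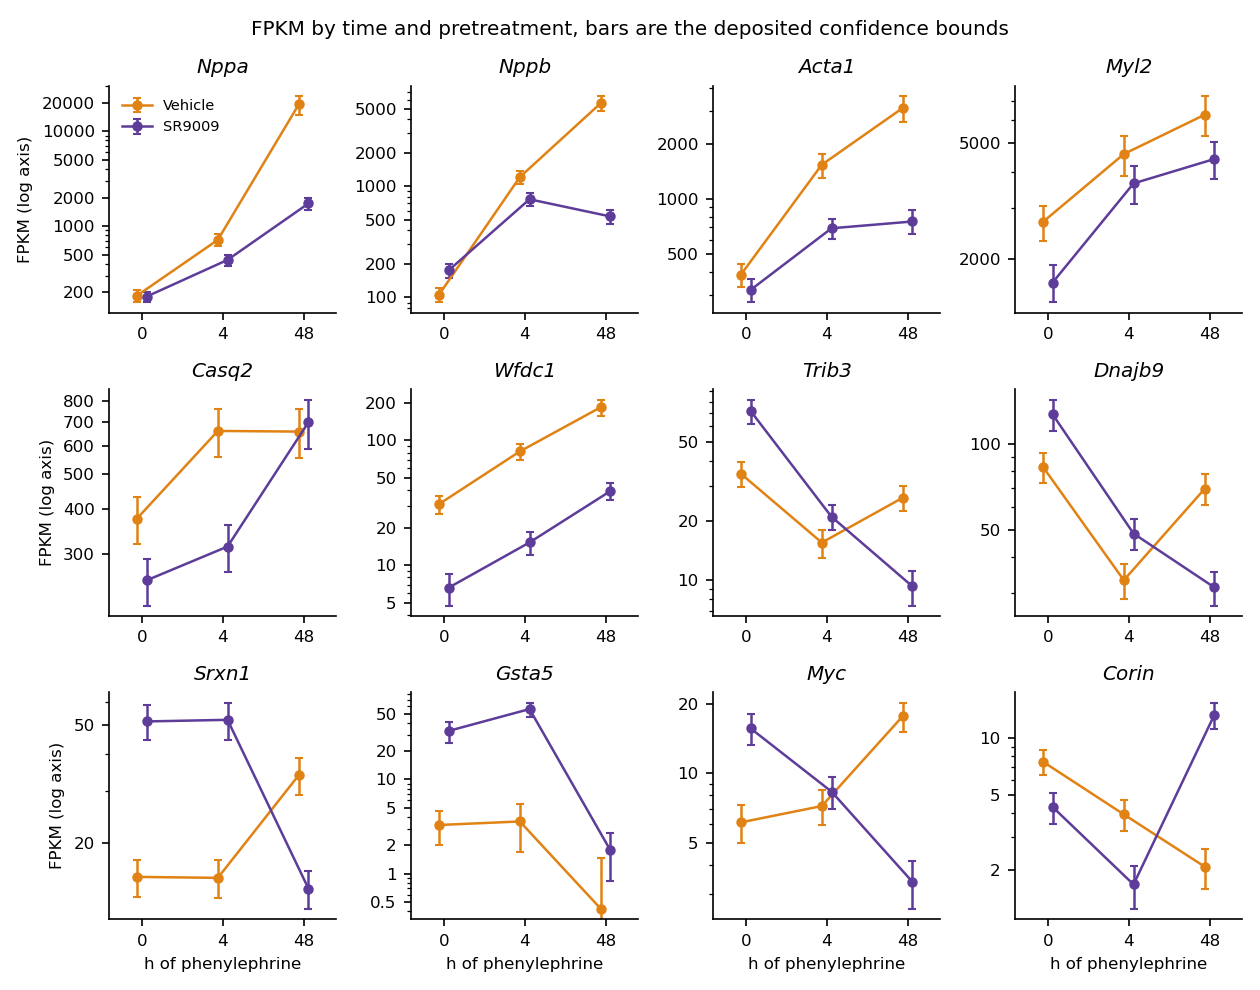
FPKM (log axis, a different scale in each panel) of 12 genes at 0, 4 and 48 h of phenylephrine in vehicle (orange) and SR9009 (purple), with the deposited confidence bounds as bars; the time axis is not to scale, and the lower bound of Gsta5 in vehicle at 48 h is 0 and leaves the axis. Under SR9009 Nppa and Myl2 were highest at 48 h, Nppb was highest at 4 h, and the FPKM of Trib3, Dnajb9 and Myc fell at each step.

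Fewer hypertrophy-associated genes met the rule under SR9009 than in vehicle. Of 16 measured members 6 were higher and 0 lower, with a median of 0.67, against 13 higher and 1 lower and a median of 2.23 in vehicle. The difference between the arms met the rule on the lower side in 10 of 16 and on the higher side in 0. Nppa, which encodes atrial natriuretic peptide (chromosome 5, 164808407 to 164809716), had 181 FPKM at 0 h, 440.1 at 4 h and 1734 at 48 h under SR9009, a difference of 3.26 (2.86 to 3.65) that was the largest among the higher genes. Vehicle had 184 FPKM at 0 h and 19205 at 48 h, so the arms began level and the difference between them was -3.44 (-4.34 to -2.50).

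Nppb, brain natriuretic peptide (chromosome 5, 164796229 to 164797531), had 175 FPKM at 0 h, 763 at 4 h and 534 at 48 h under SR9009, a difference of 1.61 (1.18 to 2.03) at 48 h. In vehicle it went from 105 to 5588 FPKM. Acta1, skeletal α-actin, had 319.6 and 754 FPKM (1.24, 0.81 to 1.66) against 387 and 3129 in vehicle. Fhl1, a LIM protein of the sarcomere, had 211 and 732 FPKM (1.79, 1.36 to 2.21), and Ankrd1, a titin-binding stretch sensor, 971 and 2655 FPKM (1.45, 0.97 to 1.92). Some members of the list did not meet the rule under SR9009 and were higher in vehicle: Xirp2, an actin-binding repeat protein, differed by 0.70 against 4.47, Rcan1, the calcineurin regulator, by 0.50 against 2.24, and Acta2, smooth muscle α-actin, by -0.05 against 1.12. Myh7 and Myh6, the β and α myosin heavy chains, could not be compared, because their values at 48 h under SR9009 were flagged as having too many fragments.

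The contractile apparatus was the pathway list with the highest median, 0.95, with 9 of 19 members higher and 0 lower. In vehicle 6 were higher and 1 lower, with a median of 0.63. Actc1, cardiac α-actin (chromosome 3, 105507403 to 105512939), had 3160.1 and 9484 FPKM, a difference of 1.5853 (1.05 to 2.10). Myl3 and Myl2, the essential and regulatory light chains of the ventricle, differed by 1.51 (1.09 to 1.92) and 1.41 (0.99 to 1.83), with Myl2 at 1666 and 4421 FPKM. Actn2, the α-actinin of the Z disc, differed by 1.26, Tcap, the titin cap, by 1.27, Myoz2 by 1.21 and Ldb3 by 1.18. Tnnt2 and Tpm1, troponin T and tropomyosin of the thin filament, both differed by 1.19, with 0.86 and 0.94 under quantile normalization. The cardiomyocyte markers, most of which are contractile genes, moved with the list: 5 of 10 were higher, all 10 had a difference above 0, and their summed level was 9150 and 18900 FPKM, while that of 11 fibroblast markers was 1880 and 1340. In vehicle 0 of the 10 cardiomyocyte markers were higher and 2 lower, with sums of 14400 and 17900 FPKM. The fibroblast sums in vehicle were 2120 and 1350. The cardiomyocyte sum at 0 h was thus smaller under SR9009 than in vehicle. The part of the makeup of the culture in these results was not tested.

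The level at 0 h bears on the size of these differences. SR9009 at 0 h had the lowest level of the 4 groups in 13 of the 19 contractile genes, against 2325 of all 10394 genes, and the median difference from vehicle was -0.54 at 0 h and -0.23 at 48 h. Tnnt2 illustrates it, with 1828 FPKM under SR9009 at 0 h, 2652 in vehicle at 0 h, 2945 in vehicle at 48 h and 4176 under SR9009 at 48 h. Its range of levels therefore reached both below and above those of vehicle.

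Among 16 calcium handling genes, 4 were higher and 0 lower, and their median was 0.35 (-0.09 in vehicle, where 1 was higher and 2 lower). Casq2, cardiac calsequestrin (chromosome 2, 204512361 to 204568643), which stores calcium in the sarcoplasmic reticulum, had 254 and 698 FPKM, a difference of 1.45 (1.01 to 1.89). Ryr2, the calcium release channel, had 77.7 and 183 FPKM (1.22, 0.80 to 1.63), while vehicle had 142 and 93.0. Hrc, a calcium-binding protein of the same store, had 12.5 and 30.0 FPKM (1.201, 0.89 to 1.51), while vehicle had 26.0 and 10.6. The calcium pump Atp2a2 differed by 0.31 under SR9009 and by -1.38 in vehicle, a difference between the arms of 1.68, and phospholamban, Pln, by 0.25 and -0.89. Casq1, the skeletal calsequestrin, had 11.8 and 26.6 FPKM under SR9009 (1.10) and 22.1 and 321 in vehicle.

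Of 21 measured ion channel genes 1 was higher under SR9009, a share near the 2.42% of all genes that met the rule. This was the T-type calcium channel gene Cacna1h at 1.12 (0.71 to 1.52). None was lower, and in vehicle 2 were higher and 7 lower. Kcnj2, the inward rectifier channel, had 28.4 and 28.2 FPKM under SR9009 and 37.0 and 10.7 in vehicle. Kcnh2, the channel of the rapid delayed rectifier current, differed by 0.35 and -1.22, Gja5, connexin 40, by 0.22 and -1.60, and Scn3b, a sodium channel subunit, by 0.19 and 3.81. The difference between the arms was above 0 in 18 of 21 channel genes and met the rule in 7 on the higher and 1 on the lower side.

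Genes of oxidative metabolism shifted by small amounts in a common direction. All 32 measured genes of the respiratory chain and citric acid cycle had a difference above 0 under SR9009, between 0.29 and 1.08, with a median of 0.52 against -0.02 in vehicle. With quantile normalization 31 were above 0. Citrate synthase, Cs, was the single gene to meet the rule, with 213 and 453 FPKM (1.08, 0.71 to 1.44), and it stood at 0.98 with FPKM rescaled to equal sums. SR9009 at 0 h was the lowest of the 4 groups in 27 of the 32 and SR9009 at 48 h the highest in 28, against 2325 and 1880 of all 10394 genes. As with the contractile genes, a lower starting level enters this difference: the median difference from vehicle was -0.27 at 0 h and 0.34 at 48 h.

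Fatty acid oxidation genes had a median of 0.29 under SR9009 and -0.53 in vehicle. Acads, short-chain acyl-CoA dehydrogenase, had 58.8 and 130.2 FPKM (1.13, 0.75 to 1.51), and Acadm, the medium-chain enzyme, 85.4 and 173 FPKM (1.01, 0.47 to 1.56). Acadm was below the limit with equal sums (0.91) and with quantile normalization (0.97). Fabp4, a fatty acid binding protein of fat and endothelium, had 8.83 and 3.85 FPKM (-1.02, -1.99 to -0.12) and stood at -0.98 with the median of all genes set to 0. In vehicle 5 of 24 genes were lower and 0 higher, and the difference between the arms was above 0 in 24 of 24. Hadh, 3-hydroxyacyl-CoA dehydrogenase, had 72.6 and 112 FPKM under SR9009 and 123 and 25.3 in vehicle, and Cpt1b, the carnitine transferase of muscle, 109.8 and 114 against 108 and 67.3.

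In glycolysis 3 of 23 genes were higher and 0 lower, with medians of 0.51 under SR9009 and 0.54 in vehicle. Slc16a3, a lactate exporter, had 11.8, 53.8 and 48.8 FPKM at 0, 4 and 48 h (1.95, 1.52 to 2.39 at 48 h). Eno3, the enolase of muscle, had 46.6 and 160.4 FPKM (1.76, 1.34 to 2.19). Pgam2, the muscle form of phosphoglycerate mutase, had 57.7 and 133.7 FPKM (1.199, 0.78 to 1.62). The last of these was lower in vehicle, at 113 and 52.7 FPKM.

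The 31 sterol and lipid synthesis genes had a median of 0.53 and 30 were above 0 (29 with equal sums). Of the 31, 2 were higher by the rule, where 1.26% of all genes were. These were Fdps, farnesyl diphosphate synthase, with 156 and 356 FPKM (1.19, 0.76 to 1.61), and the desaturase Fads1, with 20.4 and 49.1 FPKM (1.23, 0.82 to 1.64). In vehicle 22 of 31 were higher, with a median of 1.47. Idi1, isopentenyl diphosphate isomerase, differed by 0.89 against 2.56 in vehicle.

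**Figure D4:**
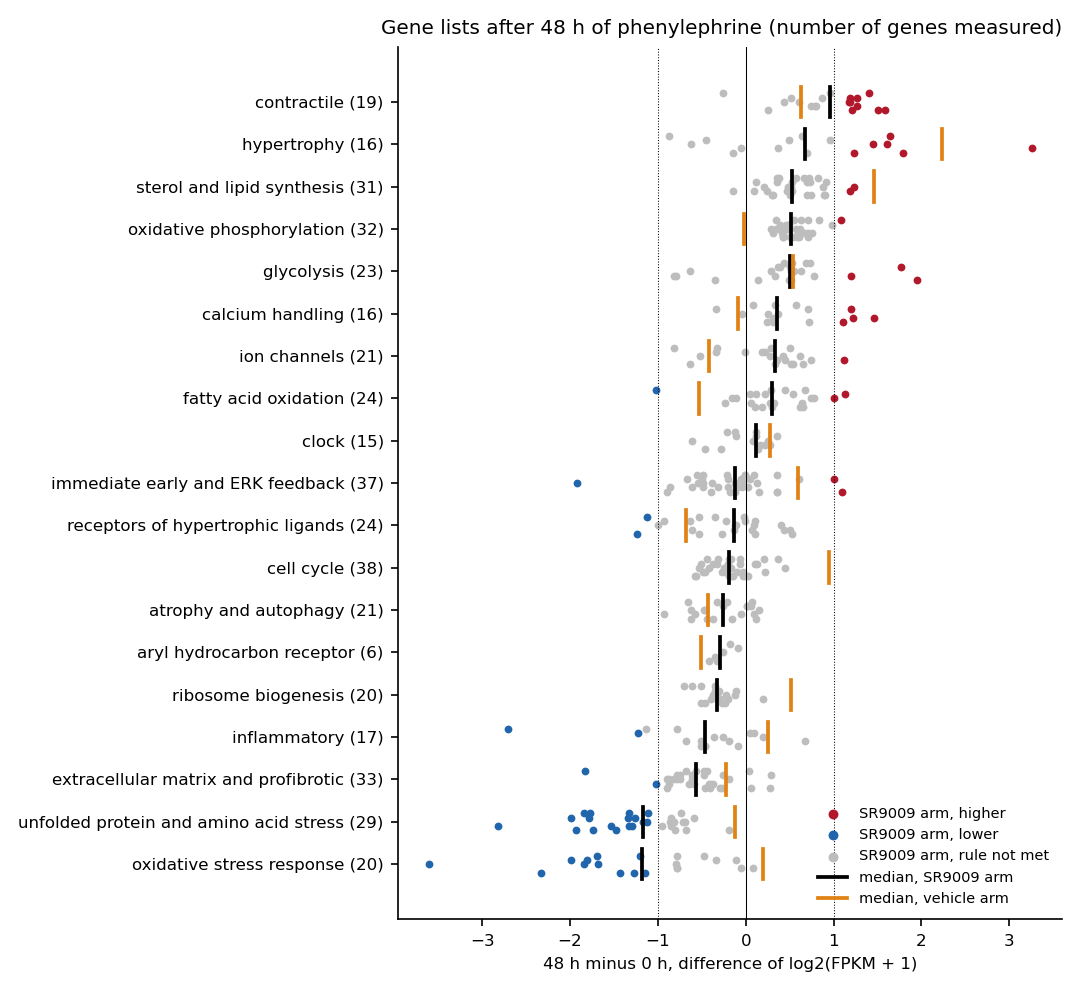
Difference of log2(FPKM + 1) between 48 and 0 h (x axis) for the members of 19 gene lists, with the number measured in parentheses. Points are single genes under SR9009, red where higher and blue where lower by the rule; black and orange bars are the medians of the list under SR9009 and in vehicle. The oxidative stress and unfolded protein lists have SR9009 medians of -1.17 with vehicle medians of 0.20 and -0.12, and the hypertrophy list has 0.67 with 2.23.

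None of the 38 cell cycle genes measured was higher or lower under SR9009, where 2.42% of all genes met the rule, and their differences lay between -0.58 and 0.45 with a median of -0.19. In vehicle 16 were higher, with a median of 0.94, and the difference between the arms met the rule on the lower side in 21. Top2a, topoisomerase of dividing cells, had 8.29 and 7.34 FPKM under SR9009 and 10.1 and 38.6 in vehicle. Rrm2, a ribonucleotide reductase subunit, had 26.7 and 23.1 FPKM against 28.3 and 133 in vehicle. SR9009 at 48 h had the lowest level of the 4 groups in 27 of the 38 and vehicle at 48 h the highest in 37, against 2941 and 3803 of all 10394 genes.

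Immediate early genes and feedback regulators of ERK signalling had a median of -0.12 under SR9009 and 0.59 in vehicle. Of 37 measured, 2 were higher and 1 lower under SR9009, and 9 were higher in vehicle. Over all genes 1.26% were higher and 1.16% lower under SR9009, and 4.87% were higher in vehicle. The orphan nuclear receptors Nr4a1 and Nr4a3 were the 2 higher, and both peaked at 4 h: Nr4a1 had 4.55, 26.8 and 10.2 FPKM at 0, 4 and 48 h, and Nr4a3 had 0.630, 10.4 and 2.48. Nr4a1 met the rule narrowly at 1.01 and stood at 0.92 with equal sums. Myc, the growth-promoting transcription factor (chromosome 7, 102586313 to 102591239), was the one lower gene, with 15.6, 8.31 and 3.38 FPKM, a difference of -1.92 (-2.40 to -1.46), while vehicle had 6.12 FPKM at 0 h and 17.6 at 48 h. Atf3, a stress-induced factor, had 4.46 and 3.15 FPKM under SR9009 and 3.11 and 22.6 in vehicle.

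Of 33 extracellular matrix and profibrotic genes, 29 had differences below 0, and the median of the list was -0.56. On the lower side 2 met the rule, where 1.16% of all genes did. In vehicle 8 were lower and 4 higher, with a median of -0.22. Spp1, osteopontin (chromosome 14, 6673686 to 6679921), had 121, 162 and 33.5 FPKM at 0, 4 and 48 h (-1.83, -2.25 to -1.398 at 48 h), against 48.7 and 55.2 in vehicle at 0 and 48 h. Eln, elastin, had 128 and 62.1 FPKM (-1.03, -1.42 to -0.63) and stood at -0.99 with the median of all genes set to 0. Its vehicle values were 235 and 44.7 FPKM (-2.37), so the difference between the arms was 1.34. Ctgf, a matricellular growth factor, had 420.2 and 274 FPKM under SR9009, a difference of -0.61, but 474 and 1541 in vehicle. Tgfb2, a growth factor, differed by -0.37 under SR9009 and by 2.05 in vehicle. Of the 11 fibroblast markers, several of which are matrix genes, 10 had a difference below 0 with a median of -0.41. None met the rule under SR9009, where 2.42% of all genes did. In vehicle 6 of these 11 markers were lower, with a median of -1.20, and the difference between the arms was above 0 in 9. Their part in the result was not tested.

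Among 17 inflammatory genes, 2 were lower and 0 higher, where 1.16% of all genes were lower and 1.26% higher. Reg3g and Reg3b encode secreted lectins, and Reg3b is induced in injured heart muscle. Reg3b had 5122 FPKM at 0 h, 1360 at 4 h and 2181 at 48 h under SR9009 (-1.23, -1.68 to -0.78), and 2187 and 246 FPKM in vehicle at 0 and 48 h. Reg3g had 10.2 and 0.710 FPKM (-2.71, -3.64 to -1.89). The 2 genes are close relatives, and their levels are uncertain to that degree. Outside the list, Casp4, an inflammatory caspase, had 59.4 and 11.1 FPKM (-2.32, -2.79 to -1.87) and Hamp, hepcidin, which governs iron export, 128 and 23.8 FPKM (-2.38, -3.15 to -1.72). Hamp was lower in vehicle too, with 63.1 and 20.5 FPKM (-1.58), while Casp4 had 29.1 and 20.5 FPKM there (-0.48). The 8 macrophage markers gave 1 higher, Cd74, and a summed level of 26.7 and 28.3 FPKM.

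Of 24 measured receptors and ligands of hypertrophic signalling, 2 were lower and 0 higher under SR9009, where 1.16% and 1.26% of all genes were. Their differences lay between -1.23 and 0.53, with a median of -0.13. In vehicle 9 were lower and 2 higher, with a median of -0.68, where 3.96% and 4.87% of all genes were. The genes of the α1-adrenergic receptors, which PE activates, did not meet the rule: Adra1a, Adra1b and Adra1d differed by 0.10, -0.14 and 0.10. In vehicle Adra1b went from 39.5 to 6.87 FPKM and Adra1d from 36.3 to 7.94, so the difference between the arms was 2.23 and 2.16. Their levels with SR9009 at 0 h were 23.3 FPKM for Adra1b and 10.8 for Adra1d. The 2 lower genes were Il6st, the shared signal chain of interleukin-6 type receptors, with 146.8 and 61.8 FPKM (-1.23, -1.61 to -0.87), and Npr3, the clearance receptor of natriuretic peptides, with 14.9 and 6.28 FPKM (-1.13, -1.60 to -0.66).

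The receptors that SR9009 targets and the clock genes around them are given by their values, since at 2.42% of all genes a count of 0 among 15 is near the background. Nr1d1 had 12.2 FPKM at 0 h and 13.4 at 48 h (0.12, -1.04 to 1.23) and Nr1d2 had 35.7 and 25.6 FPKM (-0.47, -0.84 to -0.10). Arntl, which encodes the activator BMAL1 and is a known target of REV-ERB repression, had 7.39, 17.2 and 5.89 FPKM at 0, 4 and 48 h under SR9009. In vehicle it had 7.50, 20.0 and 13.3 FPKM at the same times, so it rose by 4 h in both arms. Its difference between the arms was -1.03 (-1.84 to -0.22), or -0.92 with equal sums. Of 15 clock genes 0 were higher and 0 lower under SR9009, between -0.61 for Ciart and 0.35 for Npas2.

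The arms share no group, so their responses can be set against each other directly. Across 10394 genes the 48 h differences correlated with a Pearson r of 0.25, a description across genes that share their libraries within each arm. Of 506 genes higher in vehicle 55 were higher under SR9009 too, which is 10.9% of the vehicle genes and 42% of the 131 SR9009 genes. Of 410 lower in vehicle 33 were lower under SR9009, which is 8.05% of the vehicle genes and 27.5% of 120. Over all genes, 1.26% were higher and 1.16% lower under SR9009, and 4.87% higher and 3.96% lower in vehicle. Each share of overlap was thus above the share over all genes. Genes higher in vehicle had a median difference of 1.37 there and 0.23 under SR9009, and genes lower in vehicle -1.28 and -0.18. These genes were chosen by their vehicle value, so the medians are a description.

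The difference between the arms (SR9009 response minus vehicle response) met the size rule on the higher side in 386 of 10394 genes (3.71%) and on the lower side in 555 (5.34%), together 941 (9.05%). With equal sums it was 512 higher and 442 lower, so that 53.7% in place of 41% were on the higher side, and the median of all genes moved from -0.03 to 0.08. On the higher side stood genes that were lower in vehicle and within 2-fold under SR9009. Dhrs7c, a dehydrogenase of the sarcoplasmic reticulum, had 19.1 and 34.6 FPKM under SR9009 and 69.0 and 1.76 in vehicle, a difference between the arms of 5.49 (4.38 to 6.76). Rxrg, a retinoid X receptor, had 11.4 and 16.8 FPKM against 23.0 and 2.32 (3.37, 2.43 to 4.36). On the lower side, after Nppb at -4.11 (-4.96 to -3.26), came Xirp2, with 8.96 and 15.2 FPKM against 10.4 and 252 (-3.77, -4.60 to -2.93). Rnd1, a small GTPase, had 7.22, 59.6 and 15.8 FPKM at 0, 4 and 48 h under SR9009 and 94.4 in vehicle at 48 h (-2.75, -3.69 to -1.82).

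**Figure D5:**
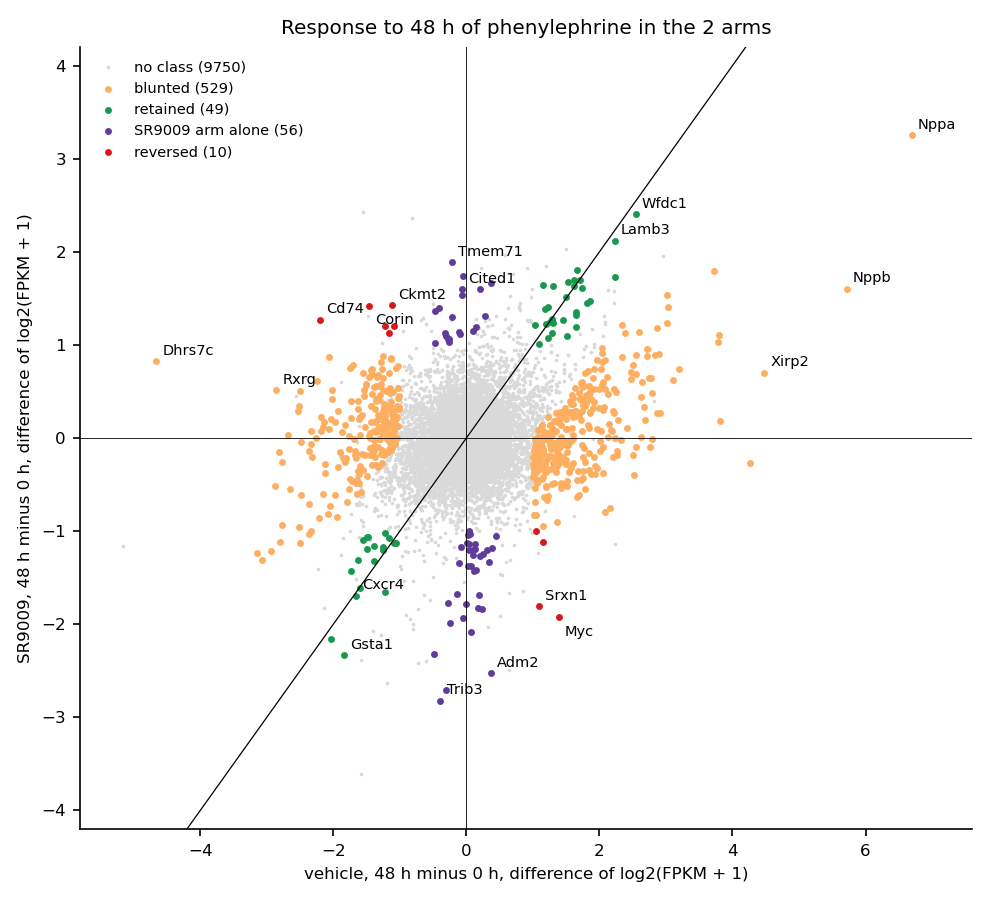
Response of each of 10394 genes to 48 h of phenylephrine in vehicle (x axis) and under SR9009 (y axis), both as differences of log2(FPKM + 1), 1 point per gene; the diagonal marks equal responses. Orange genes met the rule in vehicle with an arms' difference of opposite sign, green genes met it in both arms within 0.5 of each other, purple genes met it under SR9009 with a vehicle difference under 0.5, and the 10 red genes met it in opposite directions. The cloud is wider along the vehicle axis, and Nppa, Nppb and Xirp2 lie far below the diagonal.

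The genes were sorted by how the arms compared. In 30 genes that were higher and 19 that were lower in both arms, the responses lay within 0.5 of each other. Wfdc1, a secreted protease inhibitor-like protein, had 6.62 and 39.4 FPKM under SR9009 (2.41, 1.86 to 3.01) and 30.9 and 185 in vehicle (2.54), the same response from a lower level. Lamb3, a laminin chain, had 19.7 and 89.2 FPKM (2.12, 1.71 to 2.53) and 21.6 and 105 in vehicle. Bmp7, a growth factor of the TGF-β family, differed by 1.81 and 1.66, Bdh1, an enzyme of ketone body use, by 1.73 and 2.23, and Rxfp1, the relaxin receptor, by 1.70 and 1.62. Myocd, the serum response factor coactivator myocardin, differed by 1.65 and 1.15, from 5.67 FPKM at 0 h under SR9009 and 13.98 in vehicle. Myl2, Tcap and Myoz2 of the contractile list fell in this class. Among lower genes in this class were the chemokine receptor Cxcr4 at -1.69 and -1.66, the stress factor Atf5 at -1.65 and -1.23, and Id2, an inhibitor of helix-loop-helix factors, at -1.32 and -1.39.

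In 20 genes that were higher and 36 that were lower, the rule was met under SR9009 and by the difference between the arms, with a vehicle difference under 0.5. Cited1, a transcriptional coregulator, had 52.0 and 159 FPKM under SR9009 and 74.7 and 71.6 in vehicle. Tmem71 had 3.03 and 13.9 FPKM (1.89, 1.29 to 2.54) against 8.33 and 7.05, and Stc1, the hormone stanniocalcin, 29.0 and 94.1 against 31.9 and 41.6. On the lower side stood Trib3, Atf4, Hspa5, Slc7a5, Slc3a2 and Dnajb9 of the stress list. Adm2, a peptide hormone of the calcitonin family that ATF4 induces, had 12.5, 3.97 and 1.34 FPKM at 0, 4 and 48 h (-2.52, -3.46 to -1.73). In vehicle it had 4.95, 1.65 and 6.69 FPKM at the same times, so it fell by 4 h there too. The hypertrophic genes were the contrast: 307 genes higher and 222 lower in vehicle had a difference between the arms of the opposite sign that met the rule, and Nppa, Nppb, Acta1 and Fhl1 were among the 307. Such classes depend on the size limits; 10 further genes met the rule in opposite directions in the 2 arms.

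Other genes with large differences belonged to no list. Abra, an actin-binding protein of muscle, had 4.56 and 20.7 FPKM under SR9009, Itgb1bp2, the integrin-binding chaperone melusin, 30.4 and 112 FPKM, and Asb4 and Nsg2 differed by 1.82 and 2.03. Among genes of similar response in both arms, the small heat shock gene Hspb3 differed by 1.70 and Bok, a BCL2 family member, by 1.68. Lower genes were the growth factor Fgf7 at -2.12 (-3.68 to -0.47) and the phospholipases Pla2g7 at -2.07 and Pla2g2d at -2.05. Fgf7 had 8.03 and 1.08 FPKM, with a lower bound of 0 at 48 h, and Pla2g2d 5.55 and 0.584 FPKM, so both are low genes. Pla2g7 was lower in vehicle too, at -1.41. Nov, a matricellular protein, differed by -1.42 and Isyna1, inositol phosphate synthase, by -1.31. Des, desmin, the intermediate filament of muscle and the one higher gene among the smooth muscle markers, had 638 and 1281 FPKM.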

How the data were processed

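RNA was measured in 18 libraries of neonatal rat ventricular myocytes, 3 in each of 6 groups taken from the sample titles, prepared, per the labels' protocols, with a kit for stranded mRNA. The authors deposited 1 table in FPKM with 1 value, 2 confidence bounds, a status and a locus per gene and group, per the file headers. FastQC, Trim Galore, TopHat, Cuffdiff and build rn6 are named, without versions, per the submitters' processing notes; for the confidence level, the strand setting and how libraries were scaled, the method is not given in the sources used here. Values per library were not used here, so the planned limma test, the replicate block and leaving out libraries could not be run. Nothing says that the libraries came from separate cultures. Between 1804 and 3485 genes per group were listed at 0, which can be a failed estimate; these and genes of status HIDATA entered no difference in that group. Loci are written with the first base counted as 1: read as counted from 0, 2074 gene lengths equal those of RefSeq GRCr8, against 277 otherwise.

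Differences of log2(FPKM + 1) and their widest ranges were computed with Python 3.11.15, pandas 2.3.3 and numpy 2.4.6, with the rule of size as described; on simulated data for the 48 h comparison under SR9009 the rule was tested. The comparison, the 19 pathway and 9 cell type lists and the alternatives were chosen with earlier results of these data known. Named genes are the 15 largest differences per direction among called genes of at least 5 FPKM in a compared group, without placeholder symbols; up to 6 called members per list; 8 per direction for the difference between the arms and for genes retained in both; and, in every case, Nr1d1, Nr1d2, Arntl, the natriuretic peptide genes, Acta1 and the myosin heavy chains. Other list members are given by value, and genes named otherwise were chosen after their values were seen. Alternatives were other pseudocounts (0.1 and 0.5), filters, scalings, sizes (1.5-fold and 3-fold) and size without bounds.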

Additional observations from a re-analysis of the deposited data

Results flagged for a closer look

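In 10 genes the response to 48 h of PE met the size rule in opposite directions in the 2 arms. With 1 pooled value per group this difference was not tested. The values are the difference between the arms, SR9009 response minus vehicle response. The genes higher under SR9009 and lower in vehicle were Cd74, the invariant chain of antigen presentation, at 3.47 (3.46 to 9.77 FPKM under SR9009, 19.0 to 3.34 in vehicle), Corin, the protease that activates atrial natriuretic peptide, at 2.88 (4.32 to 13.3 FPKM, 7.50 to 2.09 in vehicle), Ckmt2, mitochondrial creatine kinase, at 2.54 (13.8 to 38.8 FPKM, 35.2 to 15.8 in vehicle), Hrc at 2.42, Rab6b at 2.29 and Pgam2 at 2.28. In each of these 6 genes SR9009 stood below vehicle at 0 h and above it at 48 h.

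The genes lower under SR9009 and higher in vehicle were Myc at -3.31, Srxn1 at -2.89, Gdf15, a stress-induced secreted factor, at -2.27 (84.3 to 38.4 FPKM under SR9009, 46.7 to 105 in vehicle) and Tbkbp1, an adaptor of the kinase TBK1, at -2.04 (5.43 to 2.21 FPKM, 3.68 to 8.63 in vehicle). In these 4 genes SR9009 stood above vehicle at 0 h and below it at 48 h. Tbkbp1 met the rule narrowly under SR9009 and stood at -0.97 with the median of all genes set to 0 and at -0.90 with quantile normalization. The count of 4 was 10 with a pseudocount of 0.1 and 2 with FPKM rescaled to equal sums.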

How the results depend on the processing

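No paired analysis was possible because the table holds 1 pooled value per gene and group; leaving out each library was not run for the same reason, and depth is unknown. With a size of 1.5-fold, 525 genes were higher and 517 lower under SR9009; with 3-fold, 30 and 36. With 3-fold the difference between the arms met the rule in 122 genes on the higher and 159 on the lower side. The other counts of these 4 results stayed within 1.5 times. Of 195 differences of single genes, no one that met the rule changed sign under the alternatives run. Besides the sizes, calls were lost with equal sums (12), median centring (6) and quantile normalization (8). Genes lower in both arms within 0.5 of each other numbered 19, 30 with a pseudocount of 0.1 and 29 with equal sums.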

Other observations

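Other genes lower under SR9009, of the secretory pathway and of tRNA, were chosen after their values were seen. All fell in the class with a vehicle difference under 0.5 in size, so a small change in vehicle was set by that class. Sec61b and Tram1, parts of the channel through which new proteins enter the endoplasmic reticulum, had 145 and 63.5 FPKM and 170.0 and 73.7 FPKM at 0 and 48 h under SR9009, with differences of -1.18 and -1.19, against -0.08 and 0.14 in vehicle. Stt3a, a catalytic subunit of N-glycosylation, differed by -1.14, Serp1, a stress-associated partner of the channel, by -1.21, and Ero1b, an oxidase of disulfide formation, by -1.38. Mars and Nars, tRNA synthetases for methionine and asparagine, differed by -1.13 and -1.05, and Xpot, which exports tRNA, by -1.34. In vehicle Nars differed by 0.45 (0.02 to 0.87), a range that excluded 0.

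Ribosome biogenesis genes gave 0 higher and 0 lower of 20, with a median of -0.33 under SR9009 and 0.52 in vehicle, and SR9009 at 48 h had the lowest level of the 4 groups in 18 of 20, against 2941 of all 10394 genes. The atrophy and autophagy list (21 genes, median -0.26) and the aryl hydrocarbon receptor list (6 genes, median -0.29) had no member that met the rule. At 2.42% of all genes, a count of 0 in each of these 3 lists is near the background. Erythroid genes were lower in 3 of 4 cases, among them Hba1 at 45.5 and 20.8 FPKM, from families with near copies. The rows of Mir3582, Mir181a2 and Mir3549 had differences of 2.43, 1.74 and -2.16; they are host or precursor loci in a library of messenger RNA and do not measure mature miRNA. Rn5s, a 5S ribosomal RNA, was listed at 4741 FPKM at 0 h and 2183 at 48 h under SR9009 and at 16652 and 2387 in vehicle.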
